A study of Caenorhabditis elegans with 15 samples.

Results

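The 10 genes described here encode enzymes of the lower and middle part of glycolysis in Caenorhabditis elegans: the aldolases aldo-1 and aldo-2, the glyceraldehyde-3-phosphate dehydrogenases (GAPDH) gpd-1, gpd-2, gpd-3 and gpd-4, the phosphoglycerate kinase pgk-1, the enolase enol-1, and the pyruvate kinases pyk-1 and pyk-2. They were taken by symbol from the WBcel235 annotation, and each matched 1 identifier among the 46739 genes of the count table. All 10 passed the filter on low counts, each with 829 or more counts in every library. In all, 16888 genes passed this filter.

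RNA of whole adult worms, hand-picked 24 h after the middle of the fourth larval stage, was sequenced in 15 libraries, 3 for each of 5 genotypes. These are wild type (wt), a knock-out labelled gld2, and double knock-outs labelled gld2-ccf1, gld2-ccr4 and gld2-parn1; all groups but wt therefore carry the gld2 label. The gene gld-2 encodes a cytoplasmic poly(A) polymerase, which lengthens the poly(A) tails of germline mRNAs, and ccf-1, ccr-4 and parn-1 encode deadenylases, which shorten tails. The labels give no alleles, strain background or number of pooled animals. The p-values of fold changes rest only on the spread between libraries of the same genotype, estimated jointly over the 5 genotypes. This spread may be technical.

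Glycolysis splits glucose into pyruvate in the cytosol. Aldolase cleaves the sugar bisphosphate into triose phosphates, GAPDH and phosphoglycerate kinase make the first ATP of the pathway, and enolase and pyruvate kinase complete the last steps. The worm has a pair of closely similar GAPDH genes on each of chromosomes II and X. Earlier work in this species described gpd-2 and gpd-3 as the main form after embryogenesis, with body wall muscle as a main site, and gpd-1 and gpd-4 as more prominent in embryos. The genes gpd-2 and gpd-3 lie in an operon behind mai-1 and are cut from a shared precursor RNA by trans-splicing.

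In the annotation, gpd-2 (WBGene00001684) spans X:3113443-3114689 and gpd-3 (WBGene00001685) X:3112091-3113341, both on the minus strand and 101 bases apart. The upstream gene mai-1 ends inside the annotated start of gpd-2 with an overlap of 22 bases on the same strand. The pair gpd-4 (WBGene00001686, II:10171268-10172498) and gpd-1 (WBGene00001683, II:10394129-10395349) lies on the plus strand of chromosome II, 222 kb apart. The aldolases are on chromosome III, aldo-1 (WBGene00011474) at 13563346-13564937 and aldo-2 (WBGene00017166) at 5874673-5876625. The remaining genes are enol-1 (WBGene00011884, II:8930997-8933799), pgk-1 (WBGene00020185, I:3867541-3869109), pyk-1 (WBGene00009126, I:9168432-9177488) and pyk-2 (WBGene00014001, IV:10909913-10913078). How reads that match several genes were counted is not given in the sources used here, so the split of counts within the near-identical GAPDH pairs is uncertain. Annotated exons overlap on the opposite strand between aldo-2 and F01F1.3 (34 bases, 4181 counts over all libraries for F01F1.3) and between pyk-2 and ZK593.11 (204 bases, 6 counts).

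Library totals ran from 28.1 to 39.4 M counts. The 10 genes together took 0.195% to 0.254% of the counts of a library. Nuclear ribosomal RNA exceeded 4% of the counts in 4 libraries: wt replicate 1 (7.04%), gld2 replicate 3 (4.30%), gld2-parn1 replicate 3 (6.80%) and, highest, gld2-ccf1 replicate 2 (14.3%). The targeted gene gld-2 was at 211 ± 32.1 CPM in wt and 53.7 ± 0.853 in gld2 (SD, n = 3), and ccr-4 at 281 ± 17.0 in gld2 and 169.6 ± 7.45 in gld2-ccr4. The libraries labelled gld2-ccf1 hold ccf-1 RNA at 1.65% to 4.97% of their counts against at most 0.00804% in wt and 0.00365% in gld2, and parn-1 was not lower in the libraries labelled gld2-parn1 (60.6 ± 4.74 CPM) than in gld2 (50.6 ± 4.15 CPM, SD, n = 3), so both groups are called by their labels only. Levels are counts per 1e+06 counts (CPM), with library sizes adjusted by edgeR's trimmed mean of M-values (TMM). Fold changes and adjusted p-values are from edgeR's quasi-likelihood test with Benjamini-Hochberg adjustment over the 16888 genes, and a gene is said to have risen or fallen where the adjusted p was under 0.05. Errors are SD over n = 3 libraries for levels and SE for log2 fold changes. Levels are compared between genes only per kb of annotated exon. The exon length covers all annotated exons of a gene, in use in these worms or not. This can lower the level per kb of a gene with a long annotation, such as pyk-1 (3.94 kb, against 1.727 kb for pyk-2).

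Per kb of exon, the order of levels in wt was led by enol-1 (456 ± 25.1 CPM per kb) and aldo-2 (437 ± 28.04), whose ranges overlapped. Below them stood gpd-1 (218 ± 13.6 CPM per kb), pgk-1 (156 ± 13.01), gpd-4 (139 ± 10.4), pyk-1 (108 ± 4.04) and gpd-3 (107 ± 9.59), then gpd-2 (66.4 ± 5.58), aldo-1 (24.9 ± 1.29) and pyk-2 (21.9 ± 1.59). Among neighbours in this order the ranges also overlapped between pgk-1 and gpd-4, pyk-1 and gpd-3, and aldo-1 and pyk-2. In gld2 the order differed: gpd-1 (235.4 ± 11.99 CPM per kb) stood above aldo-2 (207 ± 10.9), and gpd-2 (45.8 ± 4.51) above gpd-3 (37.5 ± 2.44), with no overlap of ranges in either case. In gld2-parn1 gpd-3 (124 ± 17.2 CPM per kb) stood in the fifth place, above gpd-2 (84.7 ± 14.04).

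**Figure D1:**
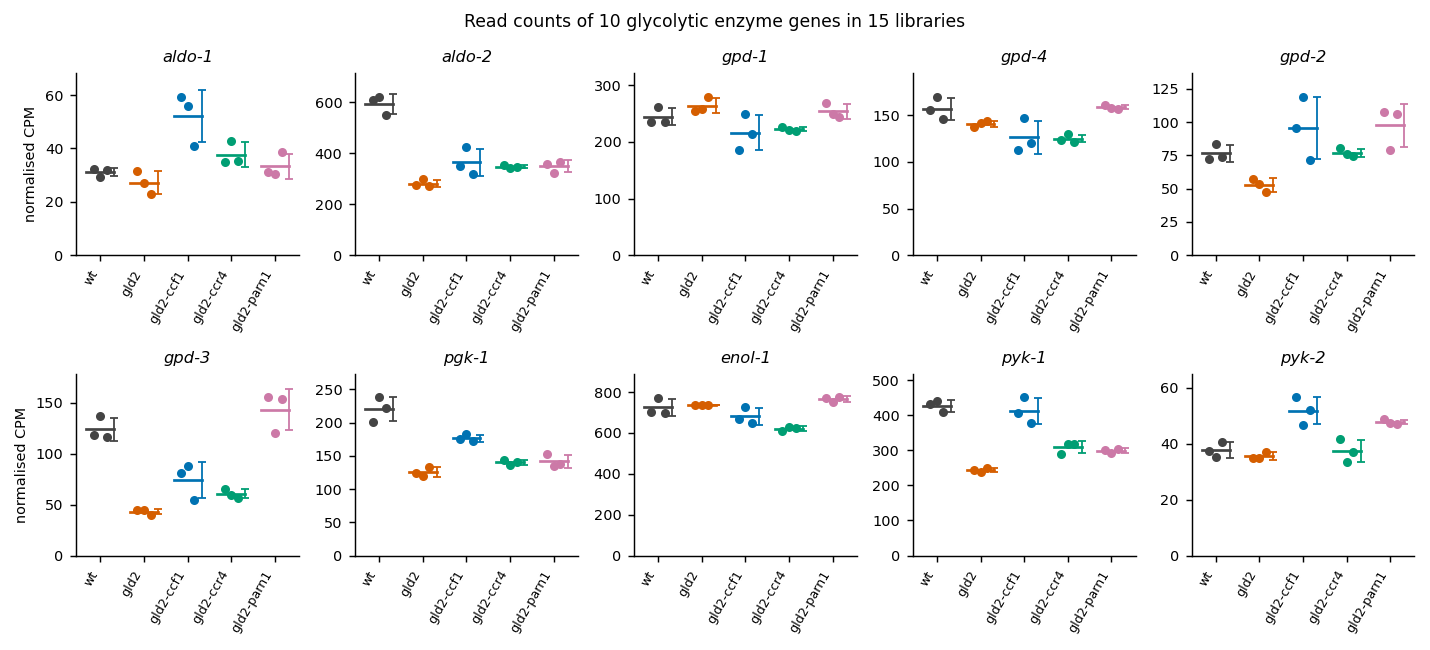
Level of each of the 10 genes (vertical axis, normalised CPM from 0) in the 15 libraries, grouped by genotype on the horizontal axis; points are libraries, lines the mean of 3 and error bars the SD. The gpd-3 libraries of gld2 lie between 40.1 and 45.2 CPM and those of wt and gld2-parn1 at 117 CPM or more.

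The first comparison, of gld2 with wt, asks how glycolytic RNA differs when the poly(A) polymerase is knocked out. Of the 10 genes 5 fell and 0 rose: gpd-3, aldo-2, pgk-1, pyk-1 and gpd-2. Across all genes tested 20.2% were lower and 28.8% higher in this comparison. The median log2 fold change of the 10 genes was -0.37 and that of all genes tested 0.14. Each of the fallen genes has its groups apart, as do 6 of the 10 genes and 57% of all genes tested.

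The operon gene gpd-3 had the largest change of the 10 genes. Its level was 118.7, 137 and 117 CPM in the wt libraries and 45.2, 44.6 and 40.1 CPM in the gld2 libraries. The groups were far apart, at -1.52 in log2 fold change (SE 0.15, adjusted p = 7.44e-07), or 2.87-fold lower in gld2. Its operon neighbour gpd-2 was at 72.02, 83.8 and 73.5 CPM in wt and at 57.6, 53.4 and 47.3 CPM in gld2. All gld2 libraries lay below all wt libraries, with a log2 change of -0.53 (SE 0.16, adjusted p = 0.0116). The call for gpd-2 ended without wt replicate 2 or gld2 replicate 3 (adjusted p from 0.0514 to 0.0543).

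The GAPDH genes on chromosome II did not pass. For gpd-1 the libraries were at 236, 262 and 235.09 CPM in wt and at 254, 259 and 279 CPM in gld2, so the groups overlapped. The log2 fold change of gpd-1 was 0.11 (95% interval -0.06 to 0.28, adjusted p = 0.274). For gpd-4 it was -0.16 (95% interval -0.32 to 0.01, adjusted p = 0.116), with 157 ± 11.8 CPM in wt and 141 ± 3.38 CPM in gld2. Without the libraries above 4% nuclear ribosomal RNA gpd-4 passed as lower (log2 fold change -0.24, adjusted p = 0.0158), and it also passed without the 10 most abundant genes (-0.21, adjusted p = 0.0409).

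Of the aldolases, which make the triose phosphates that GAPDH uses, aldo-2 was at 611, 621 and 550.4 CPM in wt and at 274, 298 and 271 CPM in gld2. All gld2 libraries lay below all wt libraries, 2.11-fold lower on average (log2 fold change -1.08, SE 0.08, adjusted p = 1.85e-09). The minor aldolase gene aldo-1 was at 32.3, 29.4 and 31.96 CPM in wt and at 31.5, 26.9 and 23.0 CPM in gld2. These groups overlapped, and the difference did not pass (log2 fold change -0.20, 95% interval -0.50 to 0.10, adjusted p = 0.261).

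Phosphoglycerate kinase, encoded by pgk-1, follows GAPDH in the pathway. Its RNA was at 201, 238 and 223 CPM in wt and at 124, 119.5 and 134 CPM in gld2, which is -0.81 as a log2 fold change (SE 0.07, adjusted p = 8.45e-09). Enolase RNA from enol-1 was at 705, 772 and 699.7 CPM in wt and at 738, 739 and 736 CPM in gld2, with the gld2 libraries inside the range of wt. The log2 fold change of enol-1 was 0.02 (95% interval -0.10 to 0.14, adjusted p = 0.762). The pyruvate kinase gene pyk-1 was at 430.4, 439 and 408 CPM in wt and at 245, 239 and 251 CPM in gld2, which is -0.80 as a log2 fold change (SE 0.07, adjusted p = 3.58e-09). Its paralog pyk-2 was at 37.8 ± 2.74 CPM in wt and 35.6 ± 1.34 CPM in gld2 with overlapping groups (log2 fold change -0.09, 95% interval -0.29 to 0.11, adjusted p = 0.477).

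Marker lists of cell types are given beside these values, as the summed CPM of a library. The 8 germline markers summed to 10896 to 12301 in wt and 6584 to 6997 in gld2, and 7 of 8 fell; the 10 muscle markers summed to 3444 to 4255 and 3156 to 3374, and 4 of 10 fell. The 6 sperm markers summed to 0.278 to 2.37 in wt and 134 to 171 in gld2, and 6 of 6 rose. The 9 intestinal markers summed to 13798 to 26036 and 11570 to 12586, with 5 of 9 lower and 1 higher, and the 7 neuronal markers to 81.5 to 105 and 84.6 to 96.6, with 1 lower and 2 higher. Of 4 tested hypodermal markers, at 1360 to 2011 and 1099 to 1292, 1 fell. Across all genes tested 28.8% were higher and 20.2% lower, so the neuronal and hypodermal counts are near the shares of all genes. No marker of the 6 lists was at 0 counts over a whole genotype. The part of these lists in the glycolytic changes was not tested. In whole animals, fewer cells of a type and less RNA per cell cannot be told apart.

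The direction of several of these changes depends on the scaling between libraries. When libraries were scaled to the summed counts of muscle, intestine, neuron and collagen genes (somatic scaling), the all-gene median went from 0.14 to 0.60, and higher genes made up 92.0% in place of 58.9% of the called genes. Of the 10 genes 2 were then higher and 2 lower, where 44.3% of all genes were called. With TMM factors computed within the same somatic genes, 1 was higher and 4 were lower (41.3% of all genes called, 83.5% of called genes higher, median of all genes 0.41). The log2 fold changes of gpd-3 under these 2 scalings were -1.05 and -1.23, and those of aldo-2 -0.61 and -0.80, negative and called under both. With summed counts the calls of gpd-2 (-0.072, adjusted p = 0.789), pgk-1 (-0.36, adjusted p = 0.137) and pyk-1 (-0.33, adjusted p = 0.135) ended, while gpd-1 (0.57, adjusted p = 0.0123) and enol-1 (0.49, adjusted p = 0.0273) were called higher. With TMM within the somatic genes the call of gpd-2 ended (-0.25, adjusted p = 0.277), those of pgk-1 (-0.53) and pyk-1 (-0.52) passed, and gpd-1 was called higher (0.39, adjusted p = 0.0470). The values of gpd-4, aldo-1 and pyk-2, not called under any of these scalings, were positive under both somatic ones (0.071 to 0.37). The somatic genes are not a fixed reference. A sum is weighted to abundant genes, and the marker lists of these tissues differed in level. Within wt the intestinal markers summed to 13798 to 26036 CPM, and the neuronal ones to 81.5 to 105. At TMM scaling 9 of 10 muscle markers rose and 0 fell in gld2-ccr4 against gld2. Of the same markers 4 fell and 0 rose in gld2 against wt. The part of such shifts in the somatic values was not tested.

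**Figure D2:**
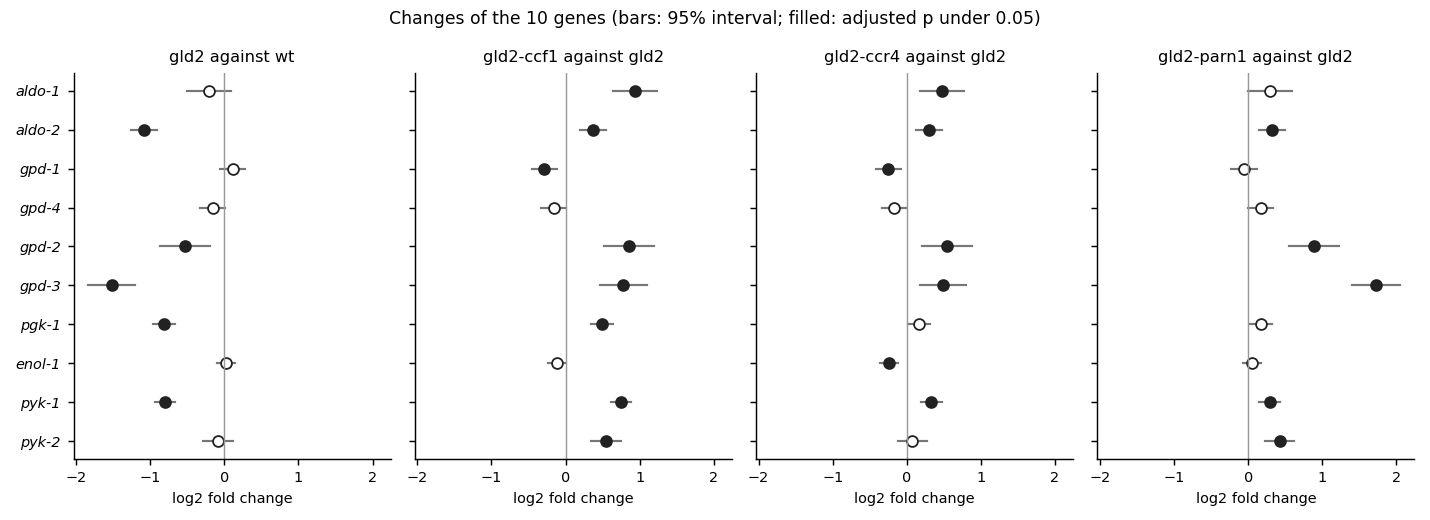
Log2 fold change (horizontal axis) of each gene (rows) in 4 comparisons; lines are 95% intervals and filled points passed at an adjusted p under 0.05. In gld2 against wt the filled points all lie below 0, from -1.52 to -0.53; in gld2-parn1 against gld2 that of gpd-3 lies at 1.73.

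The double mutants were each compared with gld2, which asks how RNA levels differ between the libraries of each double mutant label and those of gld2. The RNA of the gene named in the label was lower in gld2-ccr4 only, as given above. The 3 comparisons share the gld2 libraries, so their values are given side by side and are not independent of each other. In the libraries labelled gld2-ccf1 7 of the 10 genes rose and gpd-1 fell, where 19.8% of all genes tested were higher and 16.7% lower. In gld2-ccr4 5 rose and 2 fell, against 11.1% and 9.23% of all genes. In gld2-parn1 5 rose and 0 fell, against 4.9% in each direction. The groups did not overlap for 9, 9 and 8 of the 10 genes, against 47.4%, 41.4% and 34.2% of all genes. The medians of the 10 genes were 0.52, 0.23 and 0.29, with medians of all genes of 0.00, 0.00 and 0.02. Under the somatic scaling to summed counts the medians of all genes were -0.05, -0.37 and -0.38 and higher genes among the called went from 54.3%, 54.6% and 50% to 54.8%, 13.2% and 6.28%; with TMM within the somatic genes they were -0.23, -0.58 and -0.42, and 30.4%, 5.37% and 4.53%. Of the 10 genes, 4, 0 and 1 were then higher and 0, 3 and 0 lower with summed counts, and 4, 0 and 2 higher and 1, 5 and 1 lower with TMM within the somatic genes. Of all genes 17%, 18.5% and 9.99% were called with summed counts and 28.3%, 48% and 33% with TMM within the somatic genes.

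The genes gpd-2, gpd-3, aldo-2 and pyk-1, all lower in gld2 than in wt, rose in each double mutant against gld2 at TMM scaling; in gld2-ccr4 all 4 of them lost the call under both somatic scalings and turned negative with TMM within the somatic genes (values from -0.29 to -0.04), and aldo-2 and pyk-1 turned negative in gld2-parn1 under both (from -0.15 to -0.09). For gpd-3 the gld2-ccf1 libraries were at 80.7, 87.8 and 54.6 CPM, the gld2-ccr4 libraries at 65.4, 59.8 and 56.9 CPM and the gld2-parn1 libraries at 156, 120.5 and 154 CPM. All 9 lay above the 3 gld2 libraries (40.1 to 45.2 CPM), and the gld2-parn1 libraries also lay above those of the other double mutants. The log2 fold changes of gpd-3 against gld2 were 0.78 (SE 0.15, adjusted p = 8.49e-04) for gld2-ccf1, 0.49 (SE 0.15, adjusted p = 0.0314) for gld2-ccr4 and 1.73 (SE 0.15, adjusted p = 5.90e-06) for gld2-parn1. In gld2-ccr4 against gld2 the call for gpd-3 was lost in all 6 fits that left out 1 of the libraries compared (adjusted p from 0.0546 to 0.111), and that for gpd-2 in 5 of 6 (0.0580 to 0.0984). The difference between double mutants was itself tested: gpd-3 was lower in gld2-ccf1 than in gld2-parn1 (log2 fold change -0.95, SE 0.15, adjusted p = 1.65e-04) and lower in gld2-ccr4 than in gld2-parn1 (-1.24, SE 0.15, adjusted p = 8.77e-05).

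For gpd-2 the gld2-ccf1 libraries were at 95.8, 118.8 and 71.8 CPM, the gld2-ccr4 libraries at 80.2, 76.3 and 74.2 CPM and the gld2-parn1 libraries at 108, 78.9 and 106 CPM, all above gld2. Its log2 fold changes against gld2 were 0.85 (SE 0.16), 0.54 (SE 0.16) and 0.89 (SE 0.16), with adjusted p from 7.64e-04 to 0.0260. At TMM scaling gpd-2 did not pass between any 2 double mutants: the 95% intervals were -0.03 to 0.65 for gld2-ccf1 against gld2-ccr4, -0.37 to 0.30 for gld2-ccf1 against gld2-parn1 and -0.68 to -0.01 for gld2-ccr4 against gld2-parn1 (adjusted p from 0.169 to 0.894). Under both somatic scalings gpd-2 (0.56 and 0.63) and gpd-3 (0.55 and 0.60) were called higher in gld2-ccf1 than in gld2-ccr4 (adjusted p from 0.00319 to 0.0371). The rise of gpd-2 in gld2-parn1 against gld2 lost its call with summed somatic counts (0.47, adjusted p = 0.0911). The first gene of the operon, mai-1, encodes a protein related to a mitochondrial ATPase inhibitor. Its RNA was low, with 169 counts over the wt libraries. It was at 1.76 ± 0.363 CPM in wt, 1.62 ± 0.205 in gld2, 0.929 ± 0.151 in gld2-ccf1, 1.82 ± 0.523 in gld2-ccr4 and 1.75 ± 0.588 in gld2-parn1. It did not pass against gld2 in any double mutant (adjusted p from 0.0663 to 0.879), and was lower in gld2-ccf1 than in wt, gld2-ccr4 and gld2-parn1 (log2 fold changes from -0.97 to -0.92, adjusted p from 0.0258 to 0.0371).

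At TMM scaling the chromosome II genes moved less. With summed somatic counts this was reversed in gld2-ccr4 against gld2, with -0.62 for gpd-1 and -0.55 for gpd-4, but 0.17 for gpd-2 and 0.11 for gpd-3. For gpd-1 the gld2-ccf1 libraries were at 186, 248 and 213 CPM and the gld2-ccr4 libraries at 226, 221 and 219 CPM, all below the gld2 libraries at 254 CPM or more. It fell by 0.29 (SE 0.08, adjusted p = 0.00874) in gld2-ccf1 and by 0.25 (SE 0.08, adjusted p = 0.0367) in gld2-ccr4 on the log2 scale, and both somatic scalings gave negative values too. The call in gld2-ccr4 was lost in all 6 fits that left out 1 of the libraries compared (adjusted p from 0.0524 to 0.141), and that in gld2-ccf1 without gld2 replicate 3 or gld2-ccf1 replicate 1 (0.0507 to 0.0673) and under the scaling to summed somatic counts (0.187). In gld2-parn1 it was at 254 ± 13.2 CPM and did not pass (log2 fold change -0.06, 95% interval -0.23 to 0.11, adjusted p = 0.725), but was called lower with TMM within the somatic genes (-0.50, adjusted p = 0.0153). The values of gpd-4 were 126 ± 18.0, 125 ± 4.22 and 159 ± 2.26 CPM in the ccf1, ccr4 and parn1 double mutants, and none of these passed against gld2 at TMM scaling (adjusted p from 0.131 to 0.193), while gpd-4 was called lower in gld2-ccr4 under both somatic scalings (-0.55 and -0.76, adjusted p = 0.0392 and 1.00e-04). Between double mutants, gpd-4 was lower in gld2-ccf1 (log2 fold change -0.33, adjusted p = 0.00303) and in gld2-ccr4 (-0.34, adjusted p = 0.00720) than in gld2-parn1. Both calls were lost under both somatic scalings (adjusted p from 0.0516 to 0.961).

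Summed over the 4 GAPDH genes, the level per kb was 531 ± 38.5 CPM per kb in wt, 443 ± 7.84 in gld2, 452 ± 68.5 in gld2-ccf1, 428 ± 10.8 in gld2-ccr4 and 575 ± 38.7 in gld2-parn1. The share of that sum taken by gpd-2 and gpd-3 together was 32.7% ± 0.537 in wt and 18.8% ± 1.87 in gld2, with no overlap. It was 32.4% ± 4.92 in gld2-ccf1, 27.9% ± 0.855 in gld2-ccr4 and 36.2% ± 3.37 in gld2-parn1. In the 12 libraries that carry the gld2 label the sum of the muscle markers was 3156 to 3374 in gld2, 4490 to 6601 in gld2-ccf1, 5489 to 6330 in gld2-ccr4 and 4115 to 5736 in gld2-parn1, and against gld2 9, 9 and 6 of the 10 muscle markers rose. The hypodermal markers summed to 1170 to 1585 in gld2-ccf1, 2090 to 2402 in gld2-ccr4 and 1702 to 2517 in gld2-parn1 against 1099 to 1292 in gld2, and 1, 1 and 2 of 4 rose. The intestinal markers summed to 9168 to 20587, 11947 to 12904 and 11509 to 18212 against 11570 to 12586, with 4, 6 and 4 of 9 higher and 2, 0 and 0 lower. The neuronal markers summed to 110 to 151, 97.0 to 102 and 91.2 to 105 against 84.6 to 96.6, with 3, 2 and 0 of 7 higher and 0, 1 and 0 lower. The germline markers summed to 5939 to 7917, 6257 to 6594 and 6882 to 7506 against 6584 to 6997, with 4, 3 and 1 of 8 higher and 1, 1 and 0 lower. Across all genes tested 19.8%, 11.1% and 4.9% were higher and 16.7%, 9.23% and 4.9% lower in these 3 comparisons. The part of these lists in the values of the 10 genes was not tested.

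**Figure D3:**
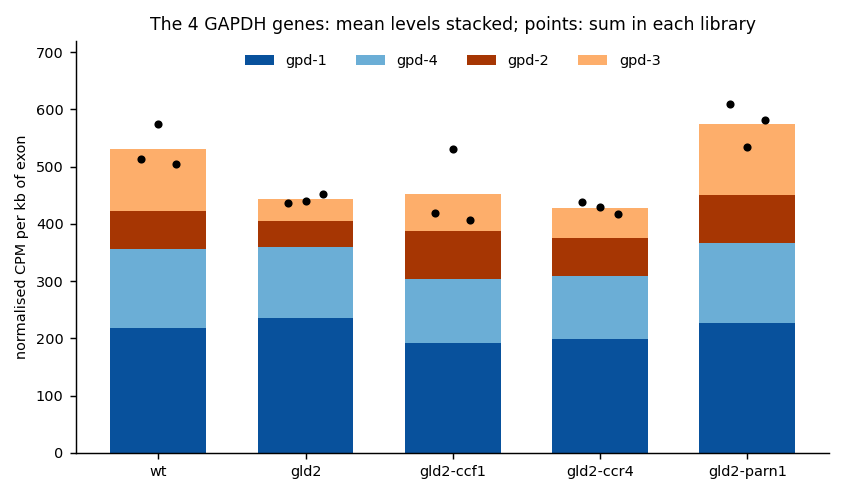
Mean level per kb of exon (vertical axis, normalised CPM per kb, from 0) of the 4 GAPDH genes, stacked for each genotype, with points for the sum in each library. The gpd-2 and gpd-3 layers together take 18.8% of the stack in gld2 and from 27.9% to 36.2% in the other genotypes.

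Aldolase RNA differed among the double mutants by paralog. The minor gene aldo-1 was at 59.3, 55.8 and 40.9 CPM in gld2-ccf1, at 34.9, 42.9 and 35.3 CPM in gld2-ccr4 and at 31.2, 30.2 and 38.7 CPM in gld2-parn1. Its gld2-ccf1 libraries were all above gld2 and wt, with log2 fold changes of 0.93 (SE 0.14, adjusted p = 4.49e-05) against gld2 and 0.73 (SE 0.14, adjusted p = 2.51e-04) against wt. It was also higher in gld2-ccf1 than in gld2-parn1 (0.64, SE 0.14, adjusted p = 0.00148) and than in gld2-ccr4 (0.46, SE 0.14, adjusted p = 0.0210), though the last call ended in 4 of the 6 fits that left out 1 library, those without gld2-ccf1 replicate 1 or 2 or without gld2-ccr4 replicate 1 or 3 (adjusted p from 0.0791 to 0.0998). In gld2-ccr4 aldo-1 rose against gld2 by 0.47 (SE 0.14, adjusted p = 0.0235), a call lost without gld2 replicate 2 or 3 or gld2-ccr4 replicate 2 (adjusted p from 0.0706 to 0.114) and under both somatic scalings, where its values were 0.10 and -0.11. The main gene aldo-2 was at 365 ± 53.8, 347 ± 5.83 and 350 ± 22.7 CPM in the ccf1, ccr4 and parn1 double mutants. It rose against gld2 by 0.37, 0.30 and 0.32 on the log2 scale (SE 0.08 each, adjusted p from 0.00154 to 0.0211) at TMM scaling, with negative values under both somatic scalings in gld2-ccr4 (-0.07 and -0.29) and gld2-parn1 (-0.09 and -0.13), stayed below wt in each (log2 fold changes from -0.77 to -0.70), and did not pass between double mutants (adjusted p from 0.586 to 0.947). With summed somatic counts the call of aldo-2 in gld2-ccf1 against wt ended (-0.33, adjusted p = 0.128), and its rise in gld2-ccf1 against gld2 lost the call under both somatic scalings (0.28 and 0.12). With TMM within the somatic genes aldo-2 was called higher in gld2-ccf1 than in gld2-ccr4 (0.41, adjusted p = 0.0454). The rise of aldo-2 in gld2-parn1 lost its call without gld2 replicate 1 or 3 or gld2-parn1 replicate 1 or 3 (adjusted p from 0.0763 to 0.104) and that in gld2-ccr4 without gld2 replicate 1 or 3 (adjusted p from 0.0550 to 0.0571).

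For the enzymes below GAPDH, pgk-1 was at 175, 182 and 172 CPM in gld2-ccf1, above all gld2 libraries, at 0.49 in log2 fold change (SE 0.07, adjusted p = 2.05e-05), which lost its call under both somatic scalings (0.43 and 0.26). In gld2-ccr4 and gld2-parn1 it was at 141 ± 3.71 and 142 ± 9.89 CPM and did not pass against gld2 at TMM scaling (log2 fold changes 0.16 and 0.18, adjusted p = 0.114 and 0.121). Under both somatic scalings these values turned negative, in gld2-ccr4 to -0.21 and -0.42, of which the latter, with TMM within the somatic genes, was called lower (adjusted p = 0.0303), and in gld2-parn1 to -0.22 and -0.27, not called. The call of pgk-1 in gld2-ccf1 against gld2 was lost under both (0.43 and 0.26). At TMM scaling it was higher in gld2-ccf1 than in gld2-ccr4 (0.33, SE 0.07, adjusted p = 0.00202) and gld2-parn1 (0.31, SE 0.07, adjusted p = 0.00154), and lower than in wt in all 4 mutants (log2 fold changes from -0.81 to -0.32) at TMM scaling, with 0.07 in gld2-ccf1 against wt under the scaling to summed somatic counts.

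The pyruvate kinase gene pyk-1 was at 405, 451 and 378 CPM in gld2-ccf1, at 289, 317 and 319 CPM in gld2-ccr4 and at 301, 292 and 305 CPM in gld2-parn1. All 9 libraries were above gld2, and those of gld2-ccf1 overlapped wt. Against gld2 the log2 fold changes were 0.75 (SE 0.07, adjusted p = 5.08e-08), 0.33 (SE 0.07, adjusted p = 0.00118) and 0.29 (SE 0.07, adjusted p = 0.00837); under somatic scaling the latter 2 turned negative, with values from -0.25 to -0.04. The difference between gld2-ccf1 and each of the others passed (0.42 and 0.46, adjusted p = 1.22e-04 and 1.99e-05). Against wt, gld2-ccf1 did not pass for pyk-1 (log2 fold change -0.05, 95% interval -0.19 to 0.09, adjusted p = 0.540), and gld2-ccr4 and gld2-parn1 were lower (-0.47 and -0.51). Its paralog pyk-2 was at 56.7, 46.8 and 52.2 CPM in gld2-ccf1, at 41.6, 33.5 and 37.2 CPM in gld2-ccr4 and at 48.8, 47.5 and 47.2 CPM in gld2-parn1. It rose in gld2-ccf1 (0.54, SE 0.09, adjusted p = 1.63e-04) and gld2-parn1 (0.43, SE 0.09, adjusted p = 0.00776) against gld2 and did not pass in gld2-ccr4 (0.07, 95% interval -0.13 to 0.27, adjusted p = 0.643); under the somatic scalings the values of pyk-2 were 0.029 and -0.015 in gld2-parn1, not called, 0.50 and 0.31 in gld2-ccf1, not called, and -0.30 and -0.52 in gld2-ccr4, the latter called lower (adjusted p = 0.0173).

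Enolase makes phosphoenolpyruvate, the substrate of pyruvate kinase. Levels of enol-1 were 682 ± 41.1 CPM in gld2-ccf1, 622 ± 10.8 in gld2-ccr4 and 767 ± 12.7 in gld2-parn1. It fell in gld2-ccr4, by 0.25 against gld2 (SE 0.06, adjusted p = 0.00482) and by 0.22 against wt (SE 0.06, adjusted p = 0.00328) on the log2 scale; with summed somatic counts the latter call ended (-0.13, adjusted p = 0.622). In the 2 other double mutants its 95% intervals against gld2 ran from -0.23 to 0.01 and from -0.06 to 0.18.

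Against wt, gld2-ccf1 had aldo-1 and pyk-2 higher and 4 genes lower (gpd-3, gpd-4, aldo-2 and pgk-1, of which gpd-4 and pgk-1 turned to 0.07 each under the scaling to summed somatic counts), where 32.1% and 19.7% of all genes were called. In gld2-ccr4 0 were higher and 6 lower (30% and 20.8% of all genes), adding enol-1 and pyk-1. In gld2-parn1 pyk-2 was higher and aldo-2, pgk-1 and pyk-1 were lower (28.9% and 21.5% of all genes), and the 4 GAPDH genes did not pass. With summed somatic counts 3 genes were higher and 0 lower in gld2-ccf1 (the calls of gpd-3, at -0.39, and aldo-2 ended, and gpd-2, at 0.66, was called higher), 0 higher and 3 lower in gld2-ccr4 (those of gpd-4, enol-1 and pyk-1 ended), and 0 higher and 2 lower in gld2-parn1 (those of pyk-2, at 0.40, and pyk-1, at -0.44, ended). Of all genes 44.3%, 34.5% and 33.2% were called, and 92.7%, 76.1% and 72.9% of those were higher. With TMM within the somatic genes 2 of the 10 genes were higher and 2 lower in gld2-ccf1 (gpd-4 and pgk-1 ended), 0 higher and 7 lower in gld2-ccr4 (gpd-1 was added), and 0 higher and 3 lower in gld2-parn1 (pyk-2, at 0.17, ended). Of all genes 39.6%, 48.7% and 43.4% were called, and 74.4%, 41.7% and 49.9% of those were higher. Without the libraries above 4% nuclear ribosomal RNA 2 were higher and 7 lower in gld2-ccf1 than in wt (48.7% of all genes called). Without the 10 most abundant genes 2 were higher and 6 lower there (52.9% of all genes called). For gpd-3 in gld2-parn1 against wt the log2 fold change was 0.21 (95% interval -0.10 to 0.52, adjusted p = 0.253), while it was -0.74 (SE 0.15, adjusted p = 6.61e-04) in gld2-ccf1 and -1.03 (SE 0.15, adjusted p = 3.67e-05) in gld2-ccr4. Between double mutants, 4 of the 10 genes were higher and 0 lower in gld2-ccf1 than in gld2-ccr4 (14.4% and 11.6% of all genes), 3 higher and 4 lower in gld2-ccf1 than in gld2-parn1 (20% and 17.2%), and 0 higher and 4 lower in gld2-ccr4 than in gld2-parn1 (7.34% and 5.95%). With summed somatic counts and with TMM within the somatic genes, respectively, 6 and 8 genes were higher and 0 lower in gld2-ccf1 than in gld2-ccr4. Of all genes 20.1% and 30.8% were called there, and 89.5% and 89.6% of those were higher. In gld2-ccf1 against gld2-parn1 3 were higher and 1 lower under each, with enol-1 turning positive under both (0.16 and 0.033) and gpd-1 with summed counts (0.087). The shares of all genes called were 32.1% and 32%, with 81.4% and 72.3% of those higher. In gld2-ccr4 against gld2-parn1 gpd-3 alone was called, as lower, under each, where 3.99% and 9.01% of all genes were called.

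Ratios between paralogs within a library do not depend on scaling between libraries. Each ratio was compared between the 3 wt and the 12 mutant libraries with an exact permutation test (two-sided, 455 arrangements, smallest possible p = 0.00440), with adjustment over the 5 ratios computed. The test counts the 12 mutant libraries as replicates of a single group, but their genotypes share only the gld2 label and differ from each other. Its p therefore does not measure a shift common to these genotypes, and the values of each genotype are given too. With 3 libraries against 3 an exact p cannot fall below 0.1.

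The ratio of gpd-2 to gpd-3 per kb was 0.618 in wt (geometric mean, range 0.608 to 0.631), 1.22 in gld2 (1.183 to 1.28), 1.29 in gld2-ccf1 (1.19 to 1.36), 1.27 in gld2-ccr4 (1.23 to 1.31) and 0.680 in gld2-parn1 (0.657 to 0.694). The 3 genotypes gld2, gld2-ccf1 and gld2-ccr4 overlapped each other, and wt and gld2-parn1 lay far below them without overlapping each other. All 12 mutant libraries were above wt, by 0.81 on the log2 scale on average (exact permutation p = 0.00440, adjusted p = 0.00733). This is a mean over unlike genotypes, with differences from wt of 0.98 in gld2, 1.06 in gld2-ccf1, 1.04 in gld2-ccr4 and 0.14 in gld2-parn1. The mean difference from gld2 was 0.08 in gld2-ccf1, 0.06 in gld2-ccr4 and -0.84 in gld2-parn1 (exact permutation p = 0.3, 0.2 and 0.1). Counts behind these ratios ran from 1441 to 5927 per gene and library.

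The other GAPDH pair varied less. The ratio of gpd-1 to gpd-4 per kb was 1.57 in wt (range 1.53 to 1.62), 1.89 in gld2 (1.84 to 1.95), 1.72 in gld2-ccf1, 1.79 in gld2-ccr4 and 1.61 in gld2-parn1. It was higher in the mutants by 0.16 on the log2 scale, with 10 of 12 libraries above all wt libraries (exact permutation p = 0.0176, adjusted p = 0.0220), and lost the call without wt replicate 1 or 2 (adjusted p = 0.110 and 0.0824), with the 4 libraries over 4% nuclear ribosomal RNA left out (0.0909) and with replicate number as a block (0.050). The ratio of the chromosome II pair to the X pair was 2.05 in wt, 4.33 in gld2, 2.10 in gld2-ccf1, 2.59 in gld2-ccr4 and 1.77 in gld2-parn1. The gld2 libraries (3.90 to 4.97) lay above all other libraries (1.58 to 2.70), and over all mutants the difference from wt did not pass (0.31 on the log2 scale, 7 of 12 libraries above and 4 below wt, exact permutation p = 0.374, adjusted p = 0.374).

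The ratios of the aldolase and pyruvate kinase paralogs both shifted toward the minor gene. In gld2 against wt neither minor gene rose at TMM scaling (aldo-1 -0.20, pyk-2 -0.09, not called), while aldo-2 (-1.08) and pyk-1 (-0.80) fell. Against wt aldo-1 rose in gld2-ccf1 (0.73), and pyk-2 in gld2-ccf1 (0.46) and gld2-parn1 (0.34). The ratio of aldo-1 to aldo-2 per kb was 0.0570 in wt, 0.104 in gld2, 0.154 in gld2-ccf1, 0.117 in gld2-ccr4 and 0.103 in gld2-parn1. All 12 mutant libraries were above wt, by 1.05 on the log2 scale (exact permutation p = 0.00440, adjusted p = 0.00733). The share of aldo-1 in aldolase RNA per kb was 5.41% ± 0.522 in wt, 9.48% ± 1.41 in gld2 and 13.4% ± 1.87 in gld2-ccf1. The ratio of pyk-1 to pyk-2 per kb was 4.94 in wt, 3.02 in gld2, 3.48 in gld2-ccf1, 3.62 in gld2-ccr4 and 2.74 in gld2-parn1. All 12 mutant libraries were below wt, by a mean log2 difference of -0.63 (exact permutation p = 0.00440, adjusted p = 0.00733), and pyk-2 took 16.9% ± 1.54 of pyruvate kinase RNA per kb in wt and 24.9% ± 0.378 in gld2.

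**Figure D4:**
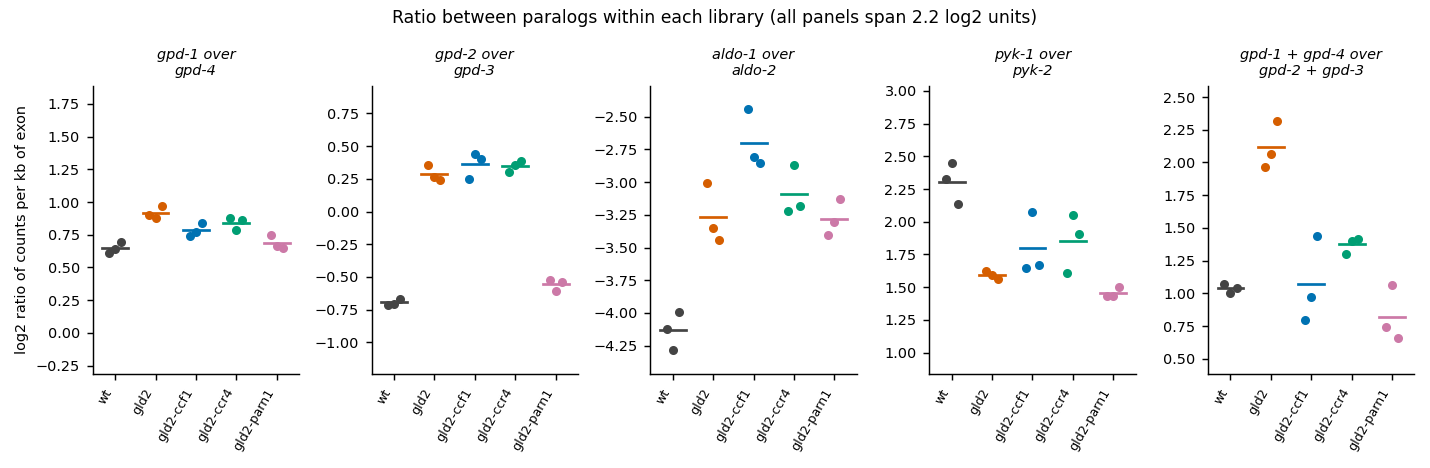
Log2 ratio of counts per kb of exon between paralogs within each library (points; lines are means of 3), by genotype; each panel spans the same 2.2 log2 units. For gpd-2 over gpd-3 the libraries of wt and gld2-parn1 lie below 0 and those of gld2, gld2-ccf1 and gld2-ccr4 above 0.

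The other genes of glycolysis and its branches went both ways. Their values, here and in the paragraphs on pfk-1.1 and on the branches, are given at TMM scaling only. In gld2 against wt the median of all genes was 0.14 at TMM scaling and 0.60 and 0.41 under the somatic scalings. Small falls such as those of hxk-2 and gpi-1 may therefore depend on the scaling, which was not tested for these genes. Of 43 listed genes, all tested, 13 were higher and 14 lower in gld2 than in wt (median log2 fold change -0.01), where 28.8% of all genes were higher and 20.2% lower. Against gld2, 20 were higher and 6 lower in gld2-ccf1 (median 0.15), 12 were higher and 3 lower in gld2-ccr4 (0.10), while gld2-parn1 had 2 higher and 0 lower (0.08); the shares of all genes were 19.8% and 16.7%, 11.1% and 9.23%, and 4.9% in each direction. Among the 9 other glycolytic genes, 3 fell and 3 rose in gld2, against the same 20.2% and 28.8% of all genes. The hexokinase gene hxk-1, whose product makes the first sugar phosphate, was at 396 ± 8.17 CPM in wt and 211 ± 7.34 in gld2 (log2 fold change -0.91, SE 0.08, adjusted p = 1.61e-08), hxk-2 was at 66.2 ± 2.33 and 49.05 ± 0.391 (-0.43, adjusted p = 2.18e-04), and hxk-3 did not pass (-0.01, adjusted p = 0.905). The isomerase gene gpi-1 fell (-0.37, SE 0.06, adjusted p = 3.92e-05), and the triose phosphate isomerase gene tpi-1 and the phosphoglycerate mutase gene ipgm-1 did not pass (-0.09 and 0.11, adjusted p = 0.276 and 0.115).

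The phosphofructokinase gene pfk-1.1, for the committed step of the pathway, rose from 113 ± 10.9 CPM in wt to 182 ± 5.99 in gld2 (0.69, SE 0.07, adjusted p = 4.83e-08), and the lactate dehydrogenase gene ldh-1 from 57.2 ± 7.61 to 86.5 ± 5.14 (0.60, SE 0.09, adjusted p = 1.08e-05). The second phosphofructokinase gene, pfk-1.2, had 4 counts over the 3 wt libraries and 1850 over the 3 gld2 libraries. In CPM this is a ratio of 431 (95% counting interval 168 to 1582, counting error only). It stood at 16.1 ± 4.76 CPM in gld2, 7.84 ± 0.383 in gld2-ccf1, 13.7 ± 1.88 in gld2-ccr4 and 24.1 ± 0.725 in gld2-parn1. The sums of the sperm markers were 80.7 to 104 CPM in gld2-ccf1, 118 to 140 in gld2-ccr4, 134 to 171 in gld2 and 201 to 235.0 in gld2-parn1, in the same order of groups as pfk-1.2 but for overlapping values of gld2 and gld2-ccr4; the part of sperm RNA was not tested.

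In the branches, the genes changed by at least 2-fold in gld2 were the following. The phosphoenolpyruvate carboxykinase gene pck-3 had 16 counts in wt and 1523 in gld2 (ratio of CPM 88.6, 95% counting interval 54.4 to 155). The glycogen phosphorylase gene pygl-1 was at 755 ± 111 CPM in wt and 343 ± 24.7 in gld2 (-1.14, SE 0.23, adjusted p = 0.00175), and T25B9.9, for 6-phosphogluconate dehydrogenase of the pentose phosphate pathway, at 266 ± 9.54 and 126 ± 6.45 (-1.07, SE 0.07, adjusted p = 1.04e-10). The glycerol-3-phosphate dehydrogenase gene gpdh-1, whose RNA is known to respond to osmotic stress, was at 4.88 ± 1.35 CPM in wt and 16.1 ± 2.65 in gld2 (1.72, SE 0.22, adjusted p = 1.83e-06). Of 8 genes for entry of pyruvate into mitochondria 5 fell and 1 rose in gld2, and of 5 gluconeogenic genes 2 rose and 1 fell, where 20.2% of all genes fell and 28.8% rose.

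As a description of pattern, the Pearson correlation of log2 CPM over the 15 libraries was computed between each of the 10 genes and 8646 other genes that averaged 5 CPM or more. The libraries share 5 genotypes, so these values mostly restate the order of the genotype means. The closest gene was Y52E8A.2 for pgk-1 (r = 0.976), sar-1 for aldo-2 (0.970), prp-21 for pyk-1 (0.965), F53A10.2 for aldo-1 (0.961), F23C8.5 for gpd-1 (0.938), rmd-2 for enol-1 (0.937), WBGene00009656 for gpd-4 (0.935), col-160 for gpd-2 (0.899), chca-1 for gpd-3 (0.885) and folt-1 for pyk-2 (0.845). Among the 10 genes themselves the closest pair was pgk-1 and pyk-1 (0.910) and the farthest gpd-1 and aldo-1 (-0.729). For gpd-3, chca-1 was at 13.4 ± 1.57 CPM in wt, 4.53 ± 0.483 in gld2, 7.74 ± 0.465 in gld2-ccf1, 7.31 ± 1.76 in gld2-ccr4 and 11.8 ± 2.14 in gld2-parn1.

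**Figure D5:**
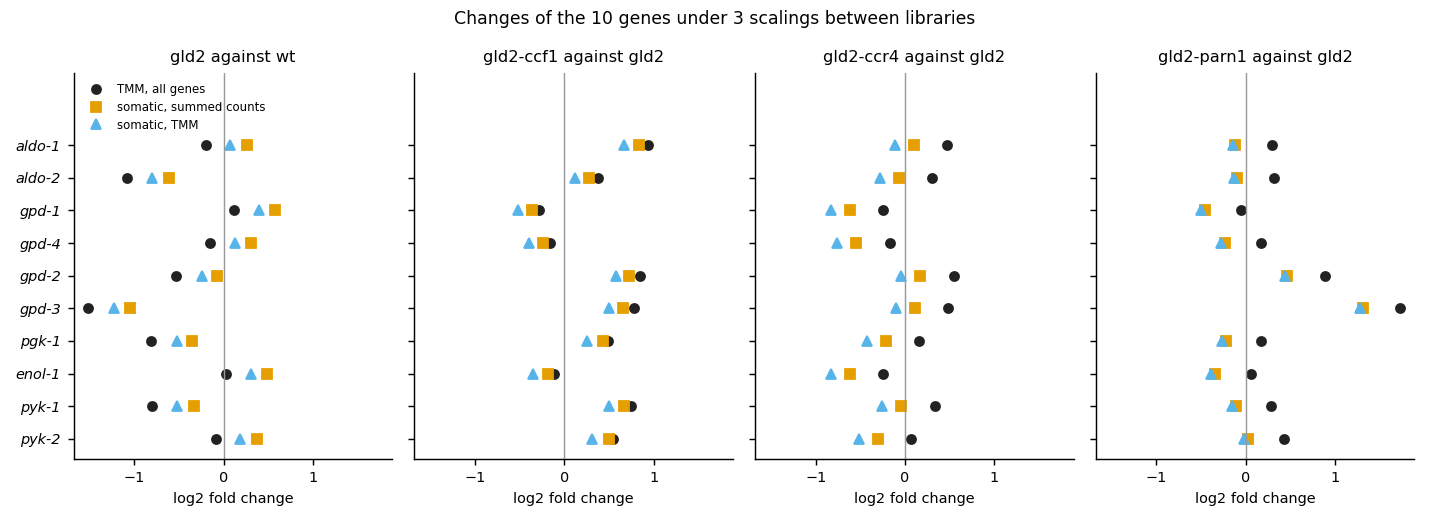
Log2 fold change (horizontal axis) of each gene (rows) in 4 comparisons under 3 scalings: TMM over all genes, the summed counts of somatic genes, and TMM within the somatic genes. The gpd-3 points lie below 0 in gld2 against wt (-1.52, -1.05 and -1.23) and above 0 in gld2-parn1 against gld2 (1.73, 1.31 and 1.28), and in gld2-ccr4 against gld2 most points of the somatic scalings lie at or below 0.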

How the data were processed

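RNA of 15 libraries of whole worms was measured. The counting of strand and of multi-mapping reads is not given in the sources used here. Per the submitters' processing notes, the tools named are FastQC, STAR 2.5.2b, Subread 1.4.6-p4 with featureCounts, and DESeq2 1.18.1, with the build WBcel235. The deposited table of raw counts per gene was used as the authors gave it; their normalized table was not used. Totals, 28.1 to 39.4 M counts, set the counting precision, and intervals called counting intervals cover counting error only. Genes were filtered with filterByExpr, scaled with TMM and tested with edgeR 4.0.16 (R 4.3.3), robust quasi-likelihood fit over 15 libraries and 5 genotype means, with 10 residual degrees of freedom; the script was tested on simulated data. Ratios used SciPy 1.17.1. DESeq2 1.42.0, other scalings, filters and left-out libraries were alternatives. Named pathway genes were the glycolytic steps and those past 2-fold in gld2 against wt. The 10 genes, lists and tests were chosen with earlier results of these data known. Same-numbered libraries did not deviate together (30 pairs, r from -0.0967 to 0.0922), so numbers were not used as pairs. The somatic TMM scaling was added after seeing the data.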

Additional observations from a re-analysis of the deposited data

How the results depend on the processing

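The number of the 10 genes called changed with the scaling between libraries and, in gld2-ccr4 against gld2, with single libraries. With scaling to summed somatic counts it was 4 in gld2-ccf1 against gld2 (8 at TMM scaling), 3 in gld2-ccr4 against gld2 (7), 1 in gld2-parn1 against gld2 (5), 3 in gld2-ccf1 against wt (6), 3 in gld2-ccr4 against wt (6), 2 in gld2-parn1 against wt (4), 4 in gld2-ccf1 against gld2-parn1 (7) and 1 in gld2-ccr4 against gld2-parn1 (4). In the same order, 17%, 18.5%, 9.99%, 44.3%, 34.5%, 33.2%, 32.1% and 3.99% of all genes were called. At TMM scaling these shares were 36.5%, 20.3%, 9.79%, 51.8%, 50.8%, 50.4%, 37.1% and 13.3%. With TMM within the somatic genes, chosen after seeing the data, the number of the 10 genes called was 5 in gld2-ccf1 against gld2, 3 in gld2-parn1 against gld2, 8 in gld2-ccf1 against gld2-ccr4 (4), 4 in gld2-ccf1 against gld2-parn1 and 1 in gld2-ccr4 against gld2-parn1. The shares of all genes were 28.3%, 33%, 30.8%, 32% and 9.01%.

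Called values that changed sign did so under the somatic scalings alone, among the 1600 values recomputed. With summed counts these were aldo-2 (-0.071) and pyk-1 (-0.041) in gld2-ccr4 against gld2, aldo-2 (-0.093) and pyk-1 (-0.11) in gld2-parn1 against gld2, gpd-4 (0.067) and pgk-1 (0.071) in gld2-ccf1 against wt, and gpd-1 (0.087) and enol-1 (0.16) in gld2-ccf1 against gld2-parn1. With TMM within the somatic genes they were gpd-2 (-0.045), gpd-3 (-0.10), aldo-1 (-0.11), aldo-2 (-0.29), pgk-1 (-0.42), pyk-1 (-0.25) and pyk-2 (-0.52) in gld2-ccr4 against gld2, aldo-2 (-0.13), pyk-1 (-0.15) and pyk-2 (-0.015) in gld2-parn1 against gld2, and enol-1 (0.033) in gld2-ccf1 against gld2-parn1. The cause was not tested, and the marker sums of the somatic tissues themselves varied, as given above. A further 83 values called in neither fit changed sign, the largest at 0.39.

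Leaving out 1 library gave 2 to 4 called genes in gld2-ccr4 against gld2 (7 with all libraries, and 2 without gld2 replicate 3). It gave 7 to 10 in gld2-ccf1 against gld2, 4 to 5 in gld2-parn1 against gld2 and 4 to 5 in gld2 against wt. For gld2-ccf1 the numbers were 6 to 7 against wt, 3 to 6 against gld2-ccr4 and 5 to 7 against gld2-parn1. In these fits 13.4% to 15.3% of all genes were called in gld2-ccr4 against gld2. The shares were 28.7% to 33.1% in gld2-ccf1 against gld2, 4.35% to 7.65% in gld2-parn1 against gld2 and 41.9% to 45% in gld2 against wt. For gld2-ccf1 they were 43.2% to 48.4% against wt, 17.5% to 24.9% against gld2-ccr4 and 29.4% to 33.2% against gld2-parn1. Without the libraries above 4% nuclear ribosomal RNA, which leaves 2 wt and 9 mutant libraries, the paralog ratios kept their differences (gpd-1 over gpd-4 0.14, gpd-2 over gpd-3 0.82, aldo-1 over aldo-2 1.07, pyk-1 over pyk-2 -0.63) with exact adjusted p of 0.0909 for the first and 0.0606 for the others. Leaving out 1 library, the difference of gpd-1 over gpd-4 ran from 0.14 to 0.18, and lost its call without wt replicate 1 or 2 (exact tests, adjusted p = 0.110 and 0.0824). With the replicate number as a block, the difference of gpd-1 over gpd-4 was 0.16 with an exact adjusted p of 0.050, no call of the 10 genes changed in edgeR, and 6 of 15 libraries correlated best with a library of their own number. Counts of called genes over all genes more than 1.5 times apart from those at TMM scaling with all libraries were as follows. With summed somatic counts they were 2869 in place of 6163 in gld2-ccf1 against gld2, 5606 in place of 8506 in gld2-parn1 against wt, and 674 in place of 2244 in gld2-ccr4 against gld2-parn1. With TMM within the somatic genes they were 8112 in place of 3431 in gld2-ccr4 against gld2 and 5581 in place of 1654 in gld2-parn1 against gld2. The last comparison had 2556 in the fit of its 6 libraries, and 880, 933, 775 and 759 without gld2 replicate 1, gld2 replicate 2, gld2-parn1 replicate 1 and gld2-parn1 replicate 3. In gld2-ccr4 against gld2-parn1 there were 1326, 1444 and 1376 without gld2-ccr4 replicate 2, gld2-parn1 replicate 2 and gld2-parn1 replicate 3.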

Other observations

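Among branches of the pathway, genes for glycogen and trehalose metabolism were called as follows in gld2-ccf1: 10 of 11 listed genes were higher and 1 lower than in gld2 (median log2 fold change 0.70), where 19.8% of all genes were higher and 16.7% lower. In gld2-ccr4 6 were higher and 0 lower, against 11.1% and 9.23% of all genes, and in gld2-parn1 1 was higher and 0 lower, against 4.9% in each direction. The list was singled out after its values were seen, and its values are given at TMM scaling only. In gld2-ccf1 the neuronal markers summed to 110 to 151 CPM against 84.6 to 96.6 in gld2. The muscle markers summed to 4490 to 6601 CPM against 3156 to 3374. Sums of the other marker lists are given above, and the part of these lists in the glycogen and trehalose values was not tested.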
